A study of Mus musculus with 15 samples.

Results

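The thioredoxin system of Lewis lung carcinoma (LL2) cells is described here through 10 genes, *Txn1*, *Txn2*, *Txnrd1*, *Txnrd2*, *Srxn1*, *Prdx1*, *Prdx2*, *Prdx3*, *Prdx5* and *Prdx6*. They were found by their symbols in a table of 35880 genes, and all 10 had enough expression to be tested. RNA sequencing compared the parental mouse line (LL2 WT) with 4 lines made from it by CRISPR, and each line had 3 biologic replicates (15 samples). *KEAP1* KO #1, *KEAP1* KO #2 and *KEAP1* KO #3 are knockouts of *Keap1*, the gene of the protein that holds NRF2 in check, and *NRF2* KO is a knockout of *Nfe2l2*, the gene of NRF2. All samples carry the cell line label LL2/Luc2 and grew in the same serum-containing medium with no drug treatment. Each knockout line was grown from 1 sorted cell, so a difference that belongs to the clone and one that belongs to the knockout cannot be told apart within a single line. The labels do not say that replicates came from separately kept cultures. The p-values set each difference between lines against the spread among these samples, pooled over the lines in the model.

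Thioredoxin (TXN1 in the cytosol and nucleus, TXN2 in mitochondria) is a small protein that reduces disulfides in other proteins. It is recharged with electrons from NADPH by thioredoxin reductase, a selenocysteine enzyme (TXNRD1 in the cytosol, TXNRD2 in mitochondria). Peroxiredoxins use these electrons to remove hydrogen peroxide, and sulfiredoxin (SRXN1) repairs typical peroxiredoxins whose active cysteine has been over-oxidised. *Txnrd1*, *Srxn1*, *Txn1*, *Prdx1* and *Prdx6* are known targets of NRF2, which binds to the antioxidant response element, a short DNA motif. The comparisons below ask how these genes differ between lines without the NRF2 repressor, the line without NRF2 and the parental line.

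Levels are given in CPM, values scaled by the authors to a common total per sample, as mean ± SD of n = 3. A limma model of log2(CPM + 0.1), fitted to 14652 genes, gave the differences, and a gene is said to have risen or fallen where the Benjamini-Hochberg adjusted p was under 0.05. All comparisons with LL2 WT share the same 3 parental samples. The RNA of the targeted genes came first. *Keap1* was at 22.0 to 24.0 CPM in LL2 WT, at 10.8 to 12.5 CPM in *KEAP1* KO #1 and at 3.78 to 7.29 CPM in the other *KEAP1* KO clones, and *Nfe2l2* was lower in all 12 knockout samples (87.0 to 146 CPM) than in LL2 WT (170 to 208 CPM). *Nfe2l2* does not single out *NRF2* KO, with means of 119 CPM there and of 96.4, 123 and 116 CPM in *KEAP1* KO #1, #2 and #3. Its fall in *NRF2* KO did not pass when only that line and LL2 WT were fitted (−0.66, adjusted p = 0.550). Nor did it pass without LL2 WT replicate 1 or 3 or *NRF2* KO replicate 1 or 2 (adjusted p from 0.0876 to 0.153). *Nqo1*, a target gene of NRF2, did separate the lines by its means. The parental cells had 30.3 CPM, *KEAP1* KO #1, #2 and #3 reached 476, 276 and 488 CPM, and *NRF2* KO had only 9.82 CPM. The paper reports editing checked by Sanger sequencing, with NQO1 protein raised in the *KEAP1* KO lines and reduced in *NRF2* KO. Whether the *Nfe2l2* RNA level reflects the edit was not tested. The label of a lung carcinoma line was compared with marker genes. *Krt8* and *Krt18* (epithelial keratins) lay above 65 CPM in every sample, *Epcam* and *Nkx2-1* were under 0.1 CPM, and the pan-leukocyte gene *Ptprc* did not exceed 0.2 CPM. The summed level of 5 leukocyte markers was 1.99 to 4.60 CPM in LL2 WT, 4.97 to 36.5 CPM in the *KEAP1* KO samples and 1.84 to 3.22 CPM in *NRF2* KO, nearly all of it *Cd68*, and that of 4 mesenchymal markers was 6098 to 6875 CPM in LL2 WT, 2698 to 5300.4 CPM in the *KEAP1* KO samples and 7031 to 7574 CPM in *NRF2* KO. Its members differed: *Vim* and *Fn1* were lower in all 3 *KEAP1* KO clones than in LL2 WT by their means, *S100a4* was higher in *KEAP1* KO #2 and #3 and *Cdh2* in *KEAP1* KO #1 and #3. By their means *Cdh2* was far lower in *KEAP1* KO #2 (0.351 CPM, against 6.73 CPM in LL2 WT) and *S100a4* lower in *KEAP1* KO #1 (1321 against 1897 CPM). The part of these markers in the results was not tested. Several of the 10 genes were low in replicate 3 of LL2 WT, compared with the mean of replicates 1 and 2. The log2 differences were −1.10 for *Txnrd2*, −0.86 for *Txn2*, −0.81 for *Prdx1* and −0.77 for *Txn1*. Of all tested genes, 4.13% to 9.43% had a lower value. *Srxn1* and *Prdx5* went the other way there (0.15 and 0.26). In *KEAP1* KO #2, *Txnrd2*, *Txn2*, *Prdx1* and *Txn1* were at −0.04, −0.42, −0.13 and −0.10, with 7.77% to 32.6% of tested genes lower. Over all tested genes replicate 3 was not lower, with a median log2 difference from replicates 1 and 2 of 0.02 to 0.16 by line. In *KEAP1* KO #1, replicate 3 was as close to replicate 1 as replicate 2 was (Spearman correlation 0.986 and 0.985). The share of all genes lowest in replicate 3 is not given. Because of the low values, the differences of the 10 genes are also given with replicate 3 of every line left out, a setting chosen after seeing the data.

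**Figure D1:**
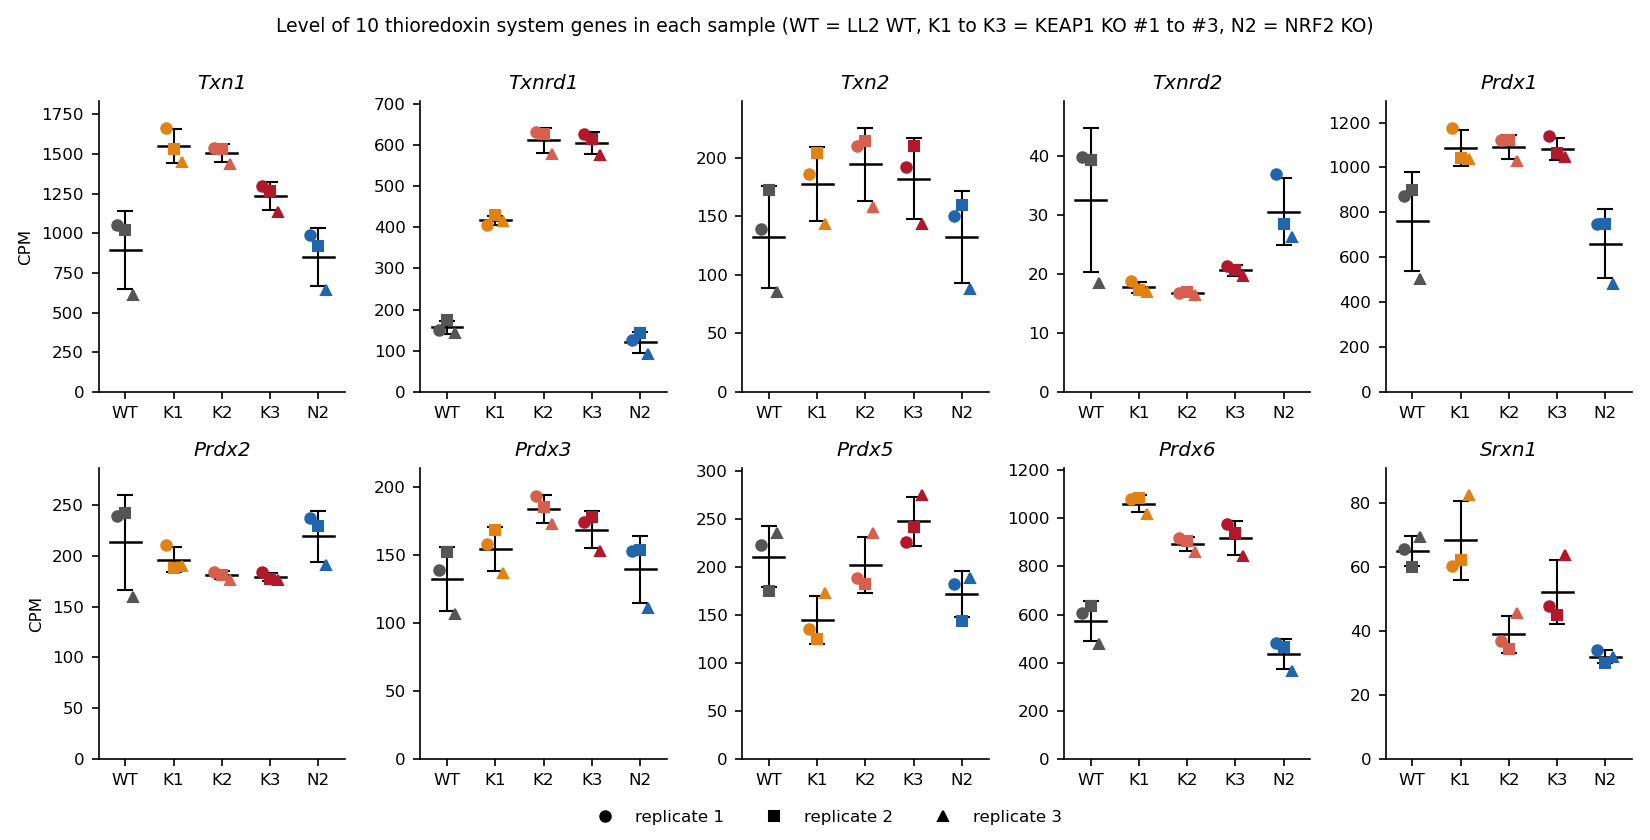
CPM (y axis, starting at 0) of each gene in every sample, by line on the x axis. Points are samples with a marker shape for each replicate, the long bar is the mean and the error bar the SD of n = 3. *Txnrd1* lies at 406 CPM or more in all *KEAP1* KO samples and at 175 CPM or less in LL2 WT, whereas *Srxn1* is lowest in *NRF2* KO.

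*Txnrd1*, the cytosolic reductase, had the largest log2 fold change of the set in each *KEAP1* KO clone. It lies on chromosome 10 of GRCm38 from 82833951 to 82897712, and 5 coding transcripts are annotated. It was at 151, 175 and 144 CPM in LL2 WT replicates 1, 2 and 3. It was at 406, 429 and 415 CPM in *KEAP1* KO #1, at 633, 627 and 578 CPM in *KEAP1* KO #2 and at 627, 615 and 575 CPM in *KEAP1* KO #3. All 9 *KEAP1* KO samples lay far above the 3 parental samples. *Txnrd1* rose 2.67-fold in *KEAP1* KO #1 (log2 fold change 1.41, standard error 0.13, adjusted p = 1.14e-05 from limma), 3.91-fold in *KEAP1* KO #2 (1.97, adjusted p = 2.84e-07) and 3.87-fold in *KEAP1* KO #3 (1.95, adjusted p = 2.86e-07). Without replicate 3 the log2 fold changes were 1.36, 1.95 and 1.93, with adjusted p of at most 9.05e-05. In *NRF2* KO the values were 126, 143 and 92.8 CPM, all below LL2 WT, with a log2 fold change of −0.40 (95% interval −0.68 to −0.12) that did not pass the test (adjusted p = 0.254), and without replicate 3 it was −0.28 (adjusted p = 0.227).

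One of the 3 annotated *Txnrd1* start sites has a match to the core of the antioxidant response element, and it is printed because this gene and *Prdx1* are the members with such a match upstream of a start site. The 10 genes were looked up among RefSeq promoter windows of GRCm38.p6, which run from 250 bases before to 50 bases after a start site, and 9 of them were found. *Prdx6* had no window and was not searched. The motif TGACNNNGC was searched on both strands, where it reads GCNNNGTCA on the opposite strand, and the capitals mark the match. The sequence of *Txnrd1* is from chr10:82859089-82859147 and that of *Prdx1* from chr4:116685441-116685499, both on the plus strand of the genome, and the matches start 92 and 133 bases before the start site.
*Txnrd1*: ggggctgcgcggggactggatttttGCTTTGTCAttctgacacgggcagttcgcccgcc
*Prdx1*: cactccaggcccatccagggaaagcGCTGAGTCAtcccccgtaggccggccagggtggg
*Srxn1* had a match 28 bases after its start site, GCTAGGTCA. Thus 3 of the 9 genes held a match, as did 16.7% of the 10126 tested genes with a window and 12.4% of all 32851 windows. A match describes these letters only and is not evidence of binding.

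*Txn1*, the cytosolic thioredoxin that TXNRD1 recharges (chromosome 4, 57943373 to 57956411), was among the most abundant genes, with a mean over the 15 samples above that of 99.1% of tested genes. It was at 1052, 1018 and 608 CPM in LL2 WT and at 988, 922 and 640 CPM in *NRF2* KO. It was at 1666, 1533 and 1451 CPM in *KEAP1* KO #1, at 1541, 1535 and 1440 CPM in *KEAP1* KO #2 and at 1298, 1270 and 1135 CPM in *KEAP1* KO #3. Every *KEAP1* KO sample was above every LL2 WT sample, and *NRF2* KO overlapped with LL2 WT. *Txn1* rose 1.79-fold in *KEAP1* KO #1 and 1.74-fold in *KEAP1* KO #2 (log2 fold changes 0.84 and 0.80, standard error 0.19, with adjusted p of 0.00813 and 0.00765). Its change of 0.51 in *KEAP1* KO #3 did not pass (adjusted p = 0.0635), although a smaller one, 0.31, passed without replicate 3 (adjusted p = 0.00761). With the replicate number added to the limma model, the same 0.51 passed (adjusted p = 0.00745). Without replicate 3, where the low LL2 WT sample is absent, the other 2 were 0.63 and 0.57 and passed (adjusted p = 0.000853 and 0.000596). With all replicates, but with each clone fitted with LL2 WT alone, the rises of 0.84 and 0.80 did not pass (adjusted p = 0.0670 and 0.0520). In *NRF2* KO it was −0.05 (95% interval −0.47 to 0.37, adjusted p = 0.950).

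Unlike *Txnrd1*, the mitochondrial reductase gene fell in 2 of the 3 *KEAP1* KO clones. *Txnrd2*, the mitochondrial reductase (chromosome 16, 18426384 to 18479073), was at 40.0, 39.4 and 18.5 CPM in LL2 WT. It was at 18.9, 17.4 and 17.0 CPM in *KEAP1* KO #1, at 16.7, 17.0 and 16.4 CPM in *KEAP1* KO #2 and at 21.4, 20.7 and 19.7 CPM in *KEAP1* KO #3, while *NRF2* KO had 37.0, 28.6 and 26.2 CPM. The *KEAP1* KO samples were thus close to each other and to LL2 WT replicate 3, and far below LL2 WT replicates 1 and 2. *Txnrd2* fell in *KEAP1* KO #1 and #2 (log2 fold changes −0.79 and −0.88, standard error 0.23, with adjusted p of 0.0269 and 0.0121), and its change of −0.58 in *KEAP1* KO #3 did not pass (adjusted p = 0.0763). Without replicate 3 it fell in all 3 clones, by 1.13, 1.23 and 0.91 on the log2 scale (adjusted p from 0.000275 to 0.00091). In *NRF2* KO it was −0.02 (adjusted p = 0.983) with all replicates and −0.29 (adjusted p = 0.317) without replicate 3. The call in *KEAP1* KO #1 did not survive the loss of LL2 WT replicate 1 or 2 or of any of its own replicates (adjusted p from 0.0509 to 0.109), and that in *KEAP1* KO #2 needed LL2 WT replicate 1, without which the change was −0.69 (adjusted p = 0.0585). Neither passed when only the clone and LL2 WT were fitted (adjusted p = 0.143 and 0.0903).

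*Txn2*, the mitochondrial thioredoxin (chromosome 15, 77915047 to 77929006), was at 139, 172 and 85.5 CPM in LL2 WT and at 150, 160 and 87.7 CPM in *NRF2* KO. In the *KEAP1* KO clones it ranged from 143 to 215 CPM, and each clone overlapped with LL2 WT. The log2 fold changes were 0.47, 0.60 and 0.50 in *KEAP1* KO #1, #2 and #3 (standard error 0.28, adjusted p from 0.113 to 0.241). Replicate 3 was the lowest sample in each of the 5 lines, and without it *Txn2* rose in all 3 clones (0.33, 0.46 and 0.38, adjusted p = 0.0487, 0.0103 and 0.0221). In *NRF2* KO the log2 fold change was 0.01 (95% interval −0.58 to 0.61).

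*Prdx3*, the peroxiredoxin found in mitochondria (chromosome 19, 60864051 to 60874556), was at 139, 152 and 107 CPM in LL2 WT. It was at 193, 185 and 173 CPM in *KEAP1* KO #2, all above LL2 WT, and rose 1.40-fold there (log2 fold change 0.49, standard error 0.15, adjusted p = 0.0253). The changes of 0.23, 0.36 and 0.07 in *KEAP1* KO #1, *KEAP1* KO #3 and *NRF2* KO did not pass, with adjusted p of 0.294, 0.0845 and 0.901. Without replicate 3 it rose in *KEAP1* KO #2 and #3 by 0.38 and 0.28 (adjusted p of 0.00293 and 0.0111). With all other samples kept, leaving out LL2 WT replicate 3, *KEAP1* KO #2 replicate 1 or *KEAP1* KO #2 replicate 2 ended the call (0.34, 0.45 and 0.48, with adjusted p of 0.101, 0.0859 and 0.0702).

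**Figure D2:**
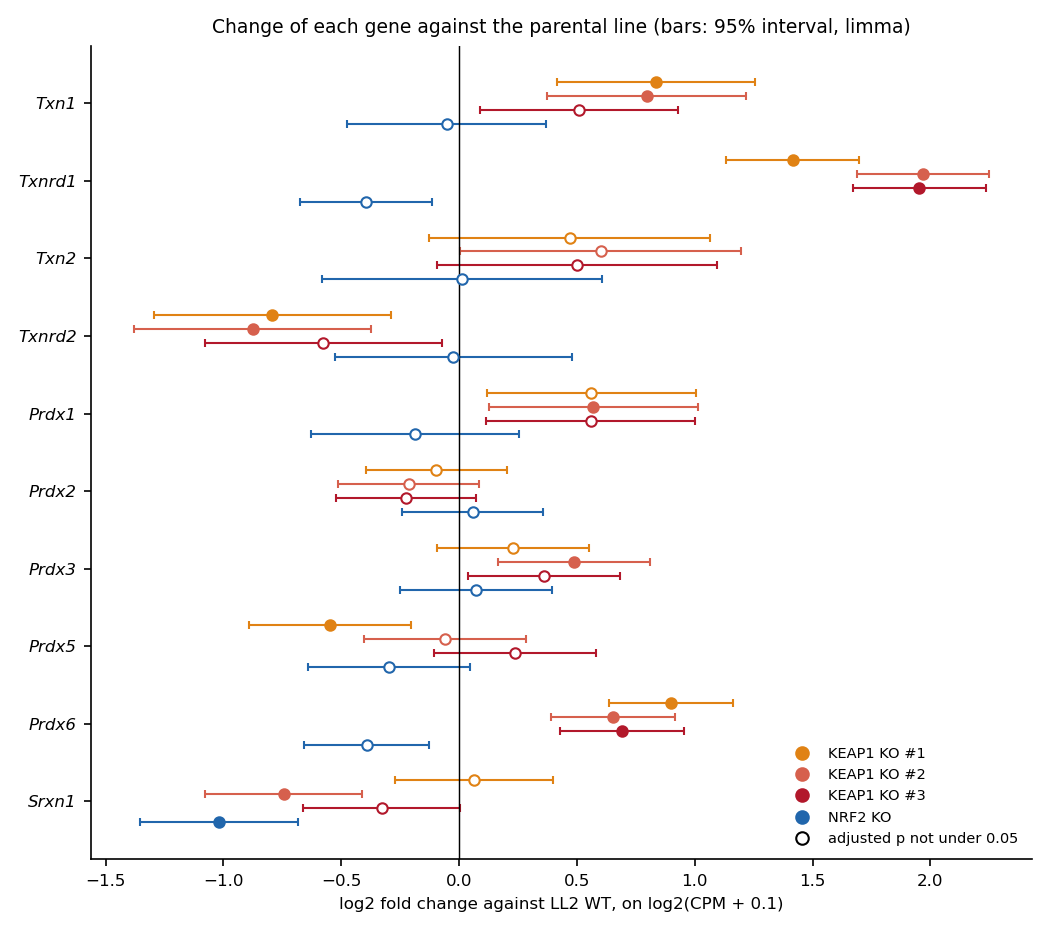
Log2 fold change against LL2 WT (x axis, on log2(CPM + 0.1)) of each gene (y axis) in the 4 knockout lines. Points are limma estimates, bars their 95% interval, and filled points have an adjusted p under 0.05. *Txnrd1* and *Prdx6* are filled and to the right in all 3 *KEAP1* KO clones, and *Srxn1* is the one filled point of *NRF2* KO, at −1.02.

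Among the cytosolic peroxiredoxins, *Prdx6* rose in all 3 *KEAP1* KO clones. PRDX6 differs from the others in that it has 1 active cysteine and takes its electrons from glutathione rather than thioredoxin. The gene (chromosome 1, 161240112 to 161251219) was at 606, 634 and 478 CPM in LL2 WT. It was at 1082, 1084 and 1019 CPM in *KEAP1* KO #1, at 917, 906 and 861 CPM in *KEAP1* KO #2 and at 977, 938 and 842 CPM in *KEAP1* KO #3. All 9 samples lay above the parental ones. The rise was 1.87-fold in *KEAP1* KO #1 (log2 fold change 0.90, standard error 0.12, adjusted p = 0.000239), 1.57-fold in *KEAP1* KO #2 (0.65, adjusted p = 0.0014) and 1.61-fold in *KEAP1* KO #3 (0.69, adjusted p = 0.000914). In *NRF2* KO it was at 481, 463 and 364 CPM, of which the highest is just above the lowest LL2 WT sample. The log2 fold change of −0.39 (95% interval −0.66 to −0.13) had an adjusted p of 0.223, and without replicate 3 it fell by the same 0.39 with an adjusted p of 0.0367. Without replicate 3 the rises in the *KEAP1* KO clones were 0.80, 0.56 and 0.63.

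*Prdx1*, a typical cytosolic peroxiredoxin (chromosome 4, 116685544 to 116700822), was at 873, 900 and 505 CPM in LL2 WT and at 746, 749 and 481 CPM in *NRF2* KO. It was at 1177, 1044 and 1037 CPM in *KEAP1* KO #1, at 1121, 1124 and 1029 CPM in *KEAP1* KO #2 and at 1138, 1065 and 1045 CPM in *KEAP1* KO #3. All *KEAP1* KO samples were above all parental ones, and the 3 clone means of 1086, 1091 and 1083 CPM were nearly equal. The log2 fold changes of 0.56, 0.57 and 0.56 (standard error 0.20) sat at the edge of the test, with adjusted p of 0.0647, 0.0494 and 0.0539, so *Prdx1* rose in *KEAP1* KO #2 alone by this rule. With the replicate number added to the limma model, the same 0.56 passed in *KEAP1* KO #1 and #3 (adjusted p = 0.0110 and 0.00921). By the pairing rule used, the numbers did not pair these samples with LL2 WT. Leaving out LL2 WT replicate 3 ended the call in *KEAP1* KO #2 (0.30, adjusted p = 0.190), as did leaving out any 1 of the *KEAP1* KO #2 replicates (adjusted p from 0.0699 to 0.124) or adding 1 CPM instead of 0.1 (adjusted p = 0.0504). When replicate 3 of every line was left out, *Prdx1* rose in each clone by less (0.32, 0.34 and 0.31) with adjusted p of 0.0145, 0.0072 and 0.0102. In *NRF2* KO it was −0.19 (95% interval −0.63 to 0.26). Processed copies of *Prdx1* share up to 11.1% of its 31-base stretches, and the 3 closest in the table did not exceed 1.39 CPM.

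*Prdx2*, the other typical cytosolic form (chromosome 8, 84969587 to 84974834), was at 239, 242 and 159 CPM in LL2 WT, at 177 to 211 CPM in the *KEAP1* KO clones and at 237, 230 and 191 CPM in *NRF2* KO. LL2 WT replicate 3 lay below all others and the remaining parental samples above all others. No change passed the test with all replicates (log2 fold changes −0.10, −0.21, −0.23 and 0.06). Without replicate 3 *Prdx2* fell in *KEAP1* KO #1, #2 and #3 by 0.27, 0.40 and 0.41 on the log2 scale (adjusted p = 0.0189, 0.00259 and 0.00212). Its transcripts share 7.22% of their 31-base stretches with *Junb* and 6.68% with *Rnaseh2a*, so its level is less certain.

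*Prdx5*, found in mitochondria, peroxisomes and the cytosol (chromosome 19, 6906697 to 6910106), differed between clones. It was at 223, 174 and 235 CPM in LL2 WT. It was at 136, 125 and 173 CPM in *KEAP1* KO #1, at 189, 182 and 235 CPM in *KEAP1* KO #2 and at 226, 241 and 275 CPM in *KEAP1* KO #3. *KEAP1* KO #1 was below every parental sample, although by a narrow margin, and the other clones overlapped with them. *Prdx5* fell in *KEAP1* KO #1 (log2 fold change −0.55, standard error 0.16, adjusted p = 0.0258) and was −0.06 and 0.24 in *KEAP1* KO #2 and #3 (adjusted p = 0.813 and 0.277). Between clones, it was 1.72-fold higher in *KEAP1* KO #3 than in *KEAP1* KO #1 (0.78, adjusted p = 0.00656). In *NRF2* KO it was at 182, 144 and 188 CPM (−0.30, adjusted p = 0.531). Without replicate 3 the changes against LL2 WT were −0.60 (adjusted p = 0.0164), −0.09, 0.24 and −0.28 in *KEAP1* KO #1, #2, #3 and *NRF2* KO, and the difference between *KEAP1* KO #3 and #1 was 0.84 (adjusted p = 0.00611). The fall in *KEAP1* KO #1 no longer passed when LL2 WT replicate 1 or 3, or its own replicate 1 or 2, was left out (adjusted p from 0.0776 to 0.115). The neighbouring *Trmt112*, at a mean of 185 CPM, holds 25.8% of the 31-base stretches of *Prdx5*, so reads could be exchanged between them.

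*Srxn1* (chromosome 2, 152105516 to 152111376) was the one gene of the set that passed the test in *NRF2* KO. It was at 65.6, 60.0 and 69.5 CPM in LL2 WT and at 34.1, 30.1 and 31.9 CPM in *NRF2* KO. All *NRF2* KO samples were far below the parental ones, and *Srxn1* fell to 0.494 of its LL2 WT level there (log2 fold change −1.02, standard error 0.15, adjusted p = 0.00885). Without replicate 3 it fell by 0.97 (adjusted p = 0.00475). Fitting these 2 lines alone ended the call (adjusted p = 0.0710), as did leaving out *NRF2* KO replicate 2 (−0.97, adjusted p = 0.0532).

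No rise of *Srxn1* passed the test in a *KEAP1* KO clone. It was at 60.5, 62.2 and 82.7 CPM in *KEAP1* KO #1, at 37.0, 34.4 and 45.5 CPM in *KEAP1* KO #2 and at 47.9, 45.1 and 63.8 CPM in *KEAP1* KO #3. *KEAP1* KO #2 lay below every LL2 WT sample and the other clones overlapped with LL2 WT. *Srxn1* fell in *KEAP1* KO #2 (−0.74, adjusted p = 0.00287, and −0.81, adjusted p = 0.00042, without replicate 3). It was 0.06 (95% interval −0.27 to 0.40) in *KEAP1* KO #1 and −0.33 (adjusted p = 0.123) in *KEAP1* KO #3, and without replicate 3 the latter 2 were −0.03 (adjusted p = 0.823) and −0.43 (adjusted p = 0.00593). The 95% intervals were −1.08 to −0.41 in *KEAP1* KO #2 and −0.66 to 0.01 in *KEAP1* KO #3.

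Counted together, in *KEAP1* KO #1 3 of the 10 genes rose (*Txn1*, *Txnrd1*, *Prdx6*) and 2 fell (*Txnrd2*, *Prdx5*), 5 in all, where 23.2% of all tested genes passed (15.9% rising and 7.25% falling). In *KEAP1* KO #2 there were 5 higher (*Txn1*, *Txnrd1*, *Prdx1*, *Prdx3*, *Prdx6*) and 2 lower (*Txnrd2*, *Srxn1*), 7 in all, against 31.9% of tested genes (17.3% and 14.6%). *KEAP1* KO #3 had 2 higher (*Txnrd1*, *Prdx6*) and 0 lower, against 31.4% of tested genes (16.6% and 14.8%), and 6 of the 10 had an unadjusted p under 0.05 by limma, as did 42.6% of tested genes. *NRF2* KO had 0 higher and 1 lower (*Srxn1*), against 0.621% of tested genes (0.130% and 0.491%), and 3 had an unadjusted p under 0.05, as did 11.2% of tested genes. Of these, *Txnrd1* in each *KEAP1* KO clone and *Srxn1* in *NRF2* KO were past an absolute log2 fold change of 1, as were 8.54%, 13.7%, 13.4% and 0.464% of tested genes in the 4 lines. The median log2 fold change of the 10 genes was 0.35, 0.53, 0.43 and −0.12 in *KEAP1* KO #1, #2, #3 and *NRF2* KO, beside 0.11, 0.03, 0.02 and 0.04 for all tested genes.

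Sample by sample, 4 of the 10 genes (*Txn1*, *Txnrd1*, *Prdx1*, *Prdx6*) had all 9 *KEAP1* KO samples above every LL2 WT sample, as did 12.9% of tested genes, and none had them all below, as 7.69% did. *Txnrd1* and *Prdx6* passed the test as higher in all 3 clones, which 8.72% of tested genes did.

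Leaving out replicate 3 of every line gave more calls. The 10 genes then had 5 higher and 3 lower in *KEAP1* KO #1 (16.5% and 10.4% of all genes), 6 higher and 3 lower in *KEAP1* KO #2 (18.6% and 20.9%), 6 higher and 3 lower in *KEAP1* KO #3 (18.1% and 22.1%) and 0 higher and 2 lower in *NRF2* KO (0.0751% and 0.328%). The direction was the same as with all replicates for each of these calls. What sets replicate 3 apart was not tested.

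Single parental samples also decided several calls. Leaving out LL2 WT replicate 3 alone let *Prdx2* pass as lower in *KEAP1* KO #1, #2 and #3 (−0.30, −0.41 and −0.42, adjusted p = 0.0415, 0.00567 and 0.00456) and *Txnrd2* in *KEAP1* KO #3 (−0.94, adjusted p = 0.00021). Leaving out LL2 WT replicate 2 let *Prdx1* pass as higher in *KEAP1* KO #1 and #3 (0.71 and 0.70), *Txn1* and *Prdx3* in *KEAP1* KO #3 (0.62 and 0.47) and *Txn2* in *KEAP1* KO #2 (0.82), with adjusted p from 0.0264 to 0.0426. Leaving out LL2 WT replicate 1 let *Txn1* and *Prdx1* pass as higher in *KEAP1* KO #3 (0.65 and 0.68, adjusted p = 0.0411 and 0.0450). *Srxn1* passed as lower in *KEAP1* KO #3 without replicate 3 of that clone (−0.48, adjusted p = 0.0293). *Txnrd1* and *Prdx6* stayed called in all 3 *KEAP1* KO clones whichever sample was left out.

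**Figure D3:**
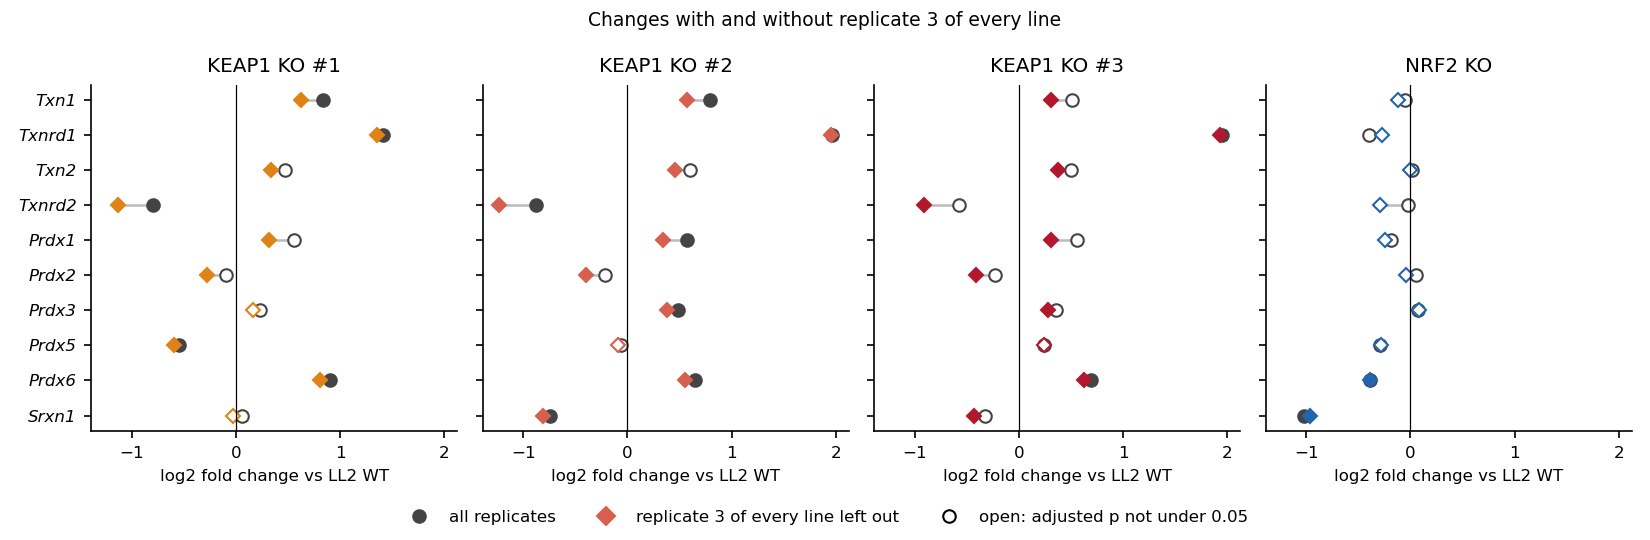
Log2 fold change against LL2 WT (x axis) of each gene (y axis) in 4 panels, 1 for each knockout line, with all replicates (grey circles) and with replicate 3 of every line left out (coloured diamonds). Filled symbols have an adjusted p under 0.05. In the *KEAP1* KO panels *Txnrd2* moves from −0.79, −0.88 and −0.58 to −1.13, −1.23 and −0.91, and *Txnrd1* stays near its value.

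The 3 *KEAP1* KO clones differed from each other in part of the set. *Txnrd1* was 1.47-fold higher in *KEAP1* KO #2 than in *KEAP1* KO #1 (log2 difference 0.55, adjusted p = 0.0159) and 1.45-fold higher in *KEAP1* KO #3 than in *KEAP1* KO #1 (0.54, adjusted p = 0.0168), with no overlap of samples in either pair. Every sample was likewise higher for 11.9% and 11.8% of tested genes. *Srxn1* went the other way, being lower in *KEAP1* KO #2 than in *KEAP1* KO #1 (−0.81, adjusted p = 0.00511, and −0.78 without replicate 3). Thus 1 of 10 genes was higher and 1 lower in *KEAP1* KO #2 than #1, against 3.94% and 7.15% of all genes, and 2 were higher (*Txnrd1* and *Prdx5*) and 0 lower in *KEAP1* KO #3 than #1, against 4.55% and 7.70%, where 3 had an unadjusted p under 0.05 by limma (25.8% of all genes). The *Txnrd1* differences were near the threshold: the first was lost without *KEAP1* KO #1 replicate 1 or *KEAP1* KO #2 replicate 1 or 2 (adjusted p from 0.0588 to 0.0658), and the second without *KEAP1* KO #1 replicate 1 or 3 or *KEAP1* KO #3 replicate 1 or 2 (0.0514 to 0.0646). Without replicate 3 of every line they were 0.59 and 0.57 (adjusted p = 0.00444 and 0.0047). Between *KEAP1* KO #3 and #2, 0 of the 10 passed by limma (0.764% of all genes) and 1 had an unadjusted p under 0.05 (8.22% of all genes). Here same-numbered samples deviated together, and with the replicate number as a block 1 gene passed, *Srxn1*, which was 1.33-fold higher in *KEAP1* KO #3 (0.42, adjusted p = 0.0472, against 0.416 without the block), while 2.64% of all genes passed. Without replicate 3 the difference was 0.38 and did not pass (adjusted p = 0.105). For *Txnrd1* the difference between these clones was −0.02 (95% interval −0.30 to 0.27).

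Levels of different genes were compared per kb of the longest coding transcript. Whether the deposited CPM were already scaled by transcript length is not given in the sources used here, and if they were, this order would be another. In LL2 WT the order was *Txn1* (849 ± 235 CPM per kb), *Prdx1* (331 ± 96.3), *Prdx6* (240 ± 34.9), *Prdx5* (167 ± 25.4), *Prdx2* (132 ± 29.1), *Prdx3* (89.6 ± 15.8), *Txn2* (64.6 ± 21.4), *Txnrd1* (43.3 ± 4.52), *Srxn1* (23.1 ± 1.70) and *Txnrd2* (11.4 ± 4.26). Neighbours from *Prdx1* to *Prdx6* and from *Prdx5* down to *Txnrd1* lay within their SDs of each other, whereas *Txn1* stood above and *Srxn1* and *Txnrd2* below. All genes were measured in the same samples, so these SDs do not show whether the order held within each sample. That order was not tested. *Txnrd1* took place 8 of the 10 in LL2 WT and *NRF2* KO, and place 5, 4 and 5 in *KEAP1* KO #1, #2 and #3 with 115 ± 3.23, 169 ± 8.34 and 167 ± 7.55 CPM per kb. *Txn1*, *Prdx1* and *Prdx6* kept the first 3 places and *Srxn1* and *Txnrd2* the last 2 in every line.

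**Figure D4:**
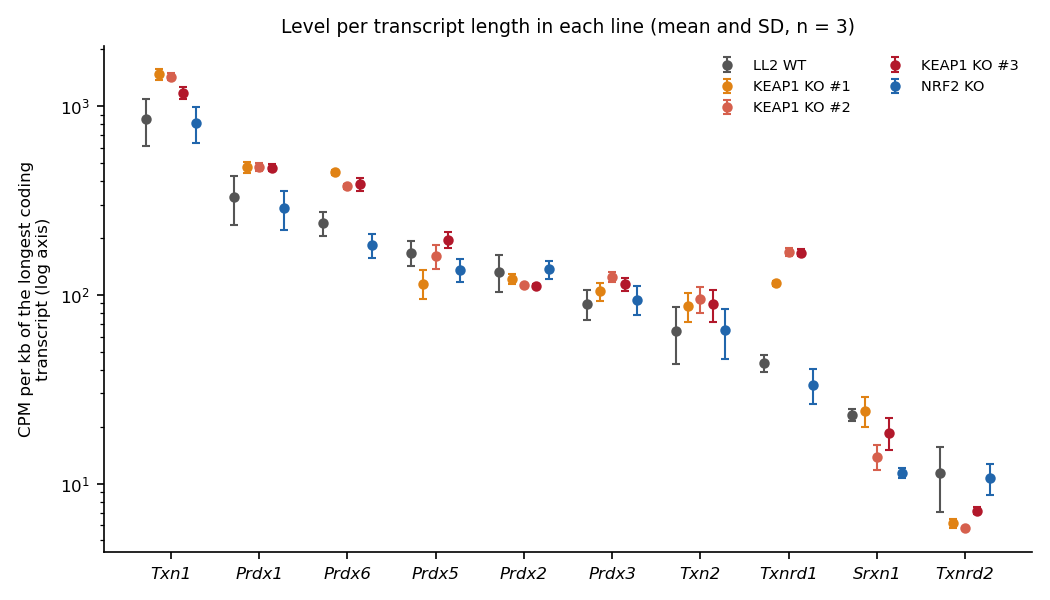
CPM per kb of the longest coding transcript (log axis) for each gene (x axis, ordered by LL2 WT) in the 5 lines, as mean and SD of n = 3. *Txnrd1* moves from 43.3 in LL2 WT to 115, 169 and 167 in the *KEAP1* KO clones, the level of the middle peroxiredoxins.

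Other genes around the thioredoxin system were taken from 3 lists. Of 12 relatives and regulators, all tested, 1 rose and 0 fell in *KEAP1* KO #1, 3 rose and 2 fell in *KEAP1* KO #2, 2 rose and 2 fell in *KEAP1* KO #3, and 0 passed in *NRF2* KO by limma, where 3 had an unadjusted p under 0.05. For these lists the shares of all tested genes are again 23.2%, 31.9%, 31.4% and 0.621% in the 4 lines (11.2% at an unadjusted p under 0.05 in *NRF2* KO). Without replicate 3 the counts were 2 and 2, 4 and 3, 3 and 4, and 0, with 26.9%, 39.6%, 40.2% and 0.403% of all genes, and 5 at an unadjusted p under 0.05 in *NRF2* KO (15.4% of all genes). *Gsr*, the gene of glutathione reductase, had 132 ± 22.1 CPM in LL2 WT and rose in all 3 *KEAP1* KO clones, reaching 297 ± 11.3, 322 ± 10.9 and 295 ± 12.6 CPM (2.28-fold, 2.47-fold and 2.26-fold, adjusted p of at most 1.68e-05, and log2 fold changes of 1.01, 1.17 and 1.06 without replicate 3). *Prdx4*, the peroxiredoxin of the endoplasmic reticulum, had 175 ± 19.0 CPM in LL2 WT and fell in *KEAP1* KO #2 and #3, to 98.8 ± 9.89 and 105 ± 11.2 CPM (log2 fold changes −0.82 and −0.73, with adjusted p of 0.000134 and 0.000315, and −0.66 and −0.58 without replicate 3). Its change of −0.24 in *KEAP1* KO #1 did not pass (adjusted p = 0.140). *Txnrd3*, a thioredoxin reductase known from testis, was low at 8.51 ± 0.818 CPM in LL2 WT and rose in *KEAP1* KO #2 to 12.6 ± 1.09 CPM (0.56, adjusted p = 0.00351, and 0.71 without replicate 3).

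*Txnip*, whose protein binds and inhibits thioredoxin, was at 35.3, 17.3 and 122 CPM in LL2 WT, and its highest value in each of the 5 lines was in replicate 3. Its log2 fold changes of −0.38, −1.11, −0.56 and −0.89 (standard error 0.62) did not pass in any line (adjusted p from 0.192 to 0.702), although without LL2 WT replicate 2 it fell by 1.75 in *KEAP1* KO #2 (adjusted p = 0.0374).

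Of 9 enzymes that take electrons from thioredoxin or proteins it regulates, 4 rose and 1 fell in *KEAP1* KO #1, 1 rose and 2 fell in *KEAP1* KO #2, 2 rose and 1 fell in *KEAP1* KO #3, and 0 passed in *NRF2* KO by limma, with 2 at an unadjusted p under 0.05. Without replicate 3 these were 4 and 2, 2 and 2, 3 and 1, and 0, with 3 at an unadjusted p under 0.05 in *NRF2* KO. Of 6 genes of the selenocysteine machinery, on which thioredoxin reductases depend, 1 rose and 1 fell in *KEAP1* KO #1, 0 rose and 2 fell in *KEAP1* KO #2, 1 rose and 3 fell in *KEAP1* KO #3, and 0 passed in *NRF2* KO, with 1 at an unadjusted p under 0.05. Without replicate 3 these were 0 and 1, 0 and 3, 0 and 3, and 0, and in *NRF2* KO 1 had an unadjusted p under 0.05. The median log2 fold changes of these 6 genes were 0.05, −0.18, −0.27 and 0.04 in this order of lines, beside 0.11, 0.03, 0.02 and 0.04 for all tested genes.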

How the data were processed

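RNA of 15 samples (5 LL2 lines, 3 biologic replicates each) was sequenced from mRNA libraries. The authors pseudo-aligned the reads to mouse cDNA with kallisto and deposited CPM per gene symbol (the methods name GRCm38.p6, the labels GRCm39). The deposited CPM are fractional and sum to 999412 to 999525 per sample, so read depth and counting intervals are unknown, and whether they were scaled by transcript length is not given in the sources used here. An entry without a symbol (0.0214% to 0.0491% of CPM) was left out. As in the study, 14652 of 35880 genes were kept, those summing to 3 CPM or more over all samples. A limma 3.58.1 model (R 4.3.3) of log2(CPM + 0.1) had 1 mean for each line and moderated variances that follow the mean level, and p-values were adjusted over all genes tested (Benjamini-Hochberg).

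The 10 genes, the 3 lists around them and the tests were chosen with earlier results of these data known. Other genes are named where called past an absolute log2 fold change of 1 in all *KEAP1* KO clones or in *NRF2* KO, together with *Prdx4*, *Txnrd3* and *Txnip*. Positions, transcripts and 31-base stretches are from GENCODE M21 (GRCm38), and promoter windows from RefSeq (GRCm38.p6). For 1 gene the shared stretches are not reported here.

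Replicate numbers were taken to pair samples where the deviations from the line means of all 3 same-numbered pairs correlated over 0.1 (11676 genes). This held for *KEAP1* KO #3 with *KEAP1* KO #2 (r = 0.278, 0.126 and 0.546) and for no other comparison made. In the others only the replicate 1 pairs fell short (r from −0.022 to 0.086). Their replicate 2 pairs were at 0.227 to 0.529 and their replicate 3 pairs at 0.422 to 0.631. Over all lines the median r was 0.276 for same-numbered pairs and −0.192 for different-numbered ones. The main tests do not model this shared deviation. Alternatives changed the pseudocount, filter, scaling, model and replicates. No pair of samples was identical. Python 3.11.15 was also used.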

Additional observations from a re-analysis of the deposited data

Results flagged for a closer look

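Differences between clones under the same comparison with LL2 WT, tested as a contrast of the 2 clones with limma, stood out for 3 of the 10 genes. *Txnrd1* was higher in *KEAP1* KO #2 than in *KEAP1* KO #1 by 0.55 on the log2 scale (adjusted p = 0.0159) and in *KEAP1* KO #3 than in *KEAP1* KO #1 by 0.54 (adjusted p = 0.0168), in 3 of 3 samples each. Every sample was likewise higher for 11.9% and 11.8% of tested genes. Both *Txnrd1* calls were lost when certain single samples were left out (adjusted p from 0.0514 to 0.0658). *Srxn1* differed by −0.81 between *KEAP1* KO #2 and *KEAP1* KO #1 (adjusted p = 0.00511), with 3 of 3 samples lower, as for 20.9% of tested genes. *Prdx5* was higher in *KEAP1* KO #3 than in *KEAP1* KO #1 by 0.78 (adjusted p = 0.00656), with 3 of 3 samples higher, as for 11.8% of tested genes.

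*Txnrd1* was above every LL2 WT sample in all 9 *KEAP1* KO samples and below every LL2 WT sample in all 3 *NRF2* KO samples (−0.40, adjusted p = 0.254 by limma against LL2 WT). The difference between *KEAP1* KO and *NRF2* KO was not tested.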

How the results depend on the processing

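The number of the 10 genes called was 5, 7, 2 and 1 in *KEAP1* KO #1, #2, #3 and *NRF2* KO against LL2 WT, and 2, 2 and 0 for *KEAP1* KO #2 against #1, #3 against #1 and #3 against #2. With replicate 3 of every line left out, chosen after seeing the data, it was 8, 9, 9 and 2, and 4, 4 and 0 (26.9%, 39.6%, 40.2% and 0.403% of all genes against LL2 WT, and 18.8%, 20.8% and 0.819% between clones). With replicate 3 as a batch term it was 8, 8, 8 and 2, and 5, 3 and 1 (40.8%, 48.1%, 47.4% and 3.04%, and 23.2%, 25.1% and 2.65%). With the replicate number as a block it was 8, 8, 9 and 2, and 5, 3 and 1 (40.8%, 48.1%, 47.2% and 3.32%, and 23.7%, 25.5% and 2.64%). By the rule used, the numbers paired the samples in the last comparison only, although replicates 2 and 3 deviated together in every comparison. Fitting only the 2 lines compared gave 2, 3, 2 and 0 (10.7%, 20.9%, 18.3% and 0.0478%), and quantile normalization 6, 8, 5 and 1 (23.2%, 34.1%, 33.4% and 0.737%). The other filters, pseudocounts, median-ratio rescaling and the fit without a variance trend stayed within 1.5 times of the first counts. Leaving out 1 replicate gave ranges of 3 to 5, 5 to 8, 2 to 5 and 0 to 1, and of 1 to 3, 1 to 3 and 0 to 0. No shares of all genes are given for these ranges, so they cannot be read as particular to the 10 genes. The causes were not tested.

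Directions that turned belong to log2 fold changes that had not passed the test. Without replicate 3 of every line, *Srxn1* (−0.0321) and *Txnip* (0.1637) in *KEAP1* KO #1 and *Prdx2* in *NRF2* KO (−0.0431) turned. Median-ratio rescaling and quantile normalization turned *Srxn1* in *KEAP1* KO #1 (−0.0426 and −0.0668) and *Txn2* in *NRF2* KO (−0.0335 and −0.0392). Leaving out 1 replicate gave ranges across 0 in *KEAP1* KO #1 for *Prdx2* (−0.2955 to 0.0062), *Txnip* (−1.0209 to 0.3836) and *Srxn1* (−0.0809 to 0.1442), in *KEAP1* KO #2 for *Prdx5* (−0.1891 to 0.0265) and in *KEAP1* KO #3 for *Txnip* (−1.2033 to 0.2011). In *NRF2* KO this held for *Txn1* (−0.3088 to 0.1389), *Txnrd2* (−0.3908 to 0.1635), *Keap1* (−0.0808 to 0.0170), *Txn2* (−0.2732 to 0.2861), *Prdx2* (−0.1401 to 0.1615), *Prdx3* (−0.0762 to 0.2275) and *Prdx1* (−0.4577 to 0.0248), and between *KEAP1* KO #3 and #2 for *Txnrd1* (−0.0569 to 0.0218). Read depth is unknown, so counting error could not be set against these values.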

Other observations

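Among the 8172 tested genes with a mean of at least 10 CPM, those whose log2 fold changes in the 4 knockout lines lay nearest to a member's were listed, the likeness being the root mean square difference over the 4 lines. For *Txnrd1* the nearest were *Il12rb1* (0.12), *Scn8a* (0.20) and *Chpf2* (0.20). For *Srxn1* they were *Idh1* (0.11), *Rab7b* (0.21) and *Dpm1* (0.25), and for *Prdx1* they were *Nrn1* (0.066), *Myc* (0.071) and *Pdlim7* (0.073). All 4 comparisons share the LL2 WT samples, and these values are descriptions with no test.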
